A study of Mus musculus with 15 samples.

Results

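Dendritic cells (DCs) that carry antigen from a tissue to its draining lymph node (LN) go through maturation on the way: they enter the lymph by the chemokine receptor CCR7, rebuild their actin skeleton into long dendrites, stop taking up antigen, and turn on signalling and regulatory genes that are low in resting DCs. Migratory DCs in the LN are therefore read, at the RNA level, by a maturation programme that DC1 (the cross-presenting lineage) and DC2 (the lineage that primes mainly CD4+ T cells) share. The 10 genes described here are known markers of such mature migratory DCs: Fscn1, Marcksl1, Cd200, Il4i1, Cacnb3, Samsn1, Tbc1d4, Birc2, Traf1 and Apol7c. They were chosen by name, with earlier results of these data known, and were matched to the Ensembl identifiers of the deposited tables. They are 10 of 38924 gene identifiers in all. Each of them passed the filter on low counts and is among the 14456 genes tested.

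RNA-seq was measured in 15 libraries of sorted cells from naïve C57BL/6 mice aged 6 to 8 weeks by the labels, with 3 libraries per subtype. The 5 subtypes were splenic CD8+ DCs (DC1), splenic CD4+ DCs (DC2), CD103+ DCs (DC1) and CD11b+ DCs (DC2) of the lung-draining LN, and splenic Ly6C+ monocytes. According to the methods of the study each library held cells pooled from 5 mice, a gate on high MHC class II protein set migratory apart from resident DCs in the LN, and the organs came from different cohorts. The labels name no transgene and no agent for any group, and organ, cohort and gate cannot be told apart in any comparison of LN with spleen. Neither the labels nor the methods tie the 3 libraries of a subtype to separate experiments beyond their pools, so the p-values measure the spread between pools. Libraries of different subtypes with the same replicate number did deviate together from their group means in part. Pearson's r was over 0.1 in 14 of 30 such pairs and in 0 of 60 pairs with different numbers. The main fit has no term for the replicate number, and a fit with it as a block was run as an alternative.

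The libraries held between 4531243 and 10233914 counts on genes, and 15222 to 17693 genes had at least 1 count. Beside the label of the LN DCs as mature migratory cells, Ccr7, Relb, Nfkb2, Socs2 and Ccl22 were read, none of which is among the 10 genes. These 5 are also on the list of 38 other maturation genes below, not all of which were higher in the LN. That list was chosen with earlier results of these data known, so the levels of these 5 are a description and no separate check. Their summed level was 6667 to 10299 CPM (read counts scaled to library size with edgeR's TMM factors) over the 6 LN libraries, 395 to 1824 over the 6 splenic DC libraries and 345 to 397 in monocytes. Flt3, which defines DCs, had means of 886 ± 134 (SD, n = 3) to 1361 ± 252 CPM over the 4 DC subtypes and Zbtb46 had means of 339 ± 26.9 to 442 ± 84.4, against 74.2 ± 36.7 and 6.84 ± 0.552 CPM in monocytes. The other 4 of 6 DC genes listed, Itgax, H2-Ab1, H2-Aa and Cd74, were all called lower in the LN in DC1, and the first 3 of them in DC2. Itgax (CD11c) went from 540 ± 17.5 to 101 ± 15.4 CPM in DC1 and from 852 ± 57.5 to 291 ± 53.2 in DC2. H2-Ab1, an MHC class II gene, went from 19118 ± 1936 to 1764 ± 1247 CPM in DC1, beside 1456 ± 158 in monocytes, and from 15888 ± 4591 to 7366 ± 2431 in DC2, although the LN cells were gated on high MHC class II protein. Of 7 DC1 genes, 6 were called lower in the LN in DC1, and 4 higher and 2 lower in DC2. They summed to 3744 to 5864 CPM in splenic CD8+ and 811 to 1140 in LN CD103+ libraries. In splenic CD4+ and LN CD11b+ ones the sums were 131 to 160 and 300 to 452. Of 7 DC2 genes, 1 was higher and 5 were lower in each lineage. They summed to 1840 to 2808 CPM in splenic CD4+ and 844 to 954 in LN CD11b+ libraries. In splenic CD8+ and LN CD103+ ones they were 103 to 284 and 53.3 to 73.8. Markers of other cells also moved with the organ. The summed level of 7 T cell genes was 74.8 to 137 CPM over the LN libraries and 3.50 to 19.96 over the splenic DC libraries, and 6 of the 7 were called higher in the LN in each lineage, with the other one lower in DC2. Of 7 B cell genes, 5 were called higher in the LN in DC1 and 1 in DC2, and their sum was 251 CPM in LN CD103+ replicate 1 and 16.5 and 28.5 CPM in its other two replicates. Ccl21a, a chemokine made by LN stroma, was at 54.5 ± 12.3 and 56.1 ± 27.1 CPM in LN CD103+ and CD11b+ DCs. It was at 0.225 ± 0.389 and 0.992 ± 0.312 CPM in splenic CD8+ and CD4+ DCs. Of 10 endothelial and stromal genes listed, 4 could be tested. Among them 1 was called higher and 1 lower in the LN in DC1, and 2 higher and 1 lower in DC2. Those higher were Ccl21a in both lineages and Col3a1 in DC2 (0 to 1.90 ± 0.402 CPM), and Pecam1 was lower in both. Of the genes not tested, Pdpn had a mean of at most 0.0854 CPM in the 5 subtypes. Col1a1 had 0.893 ± 0.661 and 0.910 ± 0.0497 CPM in LN CD103+ and CD11b+ DCs. It had 0.0898 ± 0.156 and 0 CPM in splenic CD8+ and CD4+ DCs. Pdgfra had 0.351 ± 0.608 and 0.891 ± 0.920 CPM in the same LN subtypes and 0 in splenic DCs. Prox1 had 0.424 ± 0.123 CPM in LN CD11b+ DCs and 0 in the other subtypes. Means of Cdh5 and Lyve1 were lower in the LN in DC1 and higher in DC2. Of 4 NK cell genes tested, 3 were called higher in the LN in each lineage, with a summed level of all 5 listed of at most 15.5 CPM in any DC library. Of 8 monocyte genes, 5 were called higher in the LN in DC2, among them Ly6c2 (0.564 ± 0.0879 to 14.98 ± 2.89 CPM) and Ccr2 (16.9 ± 3.11 to 125 ± 28.5 CPM), while their summed level was 476 to 683 CPM over the splenic CD4+ and 570 to 663 over the LN CD11b+ libraries and 5727 to 6389 in monocytes. In DC1, 5 of the 8 were lower and none was higher. Of 7 macrophage genes, 4 were higher and 1 lower in the LN in DC2, among the 4 C1qb (70.4 ± 26.7 to 205 ± 73.3 CPM), with a summed level of 1029 to 1326 CPM in the spleen and 627 to 917 in the LN, and 1 was higher and 4 were lower in DC1. Bulk values cannot separate more cells of a type from more RNA per cell, and the part that other cells play in the results below was not tested.

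The 10 genes together took 1.76% ± 0.141 (SD, n = 3) of all counts in LN CD103+ DCs and 1.15% ± 0.0813 in LN CD11b+ DCs. In the spleen they took 0.124% ± 0.0295 in CD8+ DCs, 0.173% ± 0.0259 in CD4+ DCs and 0.0396% ± 0.00260 in monocytes. Within DC1 and within DC2, every LN library was above every splenic one for all 10, as for 28.8% and 23.1% of all genes tested. For all 10 the lowest LN library of either lineage was also above the highest splenic library, monocytes included. The share of all genes that meet this stricter rule was not counted. On the length-scaled TPM values (as deposited), Fscn1 ranked 20 among all 38924 identifiers by its mean in LN CD103+ DCs at 4989 ± 681 TPM. Apol7c followed at rank 42 with 2565 ± 727 TPM, then Il4i1 at rank 76 with 1395 ± 117 TPM and Cacnb3 at rank 86 with 1305 ± 27.5 TPM. Cd200 was the lowest of the 10 there, at 103 ± 3.69 TPM and rank 1297. In LN CD11b+ DCs Fscn1, Apol7c and Il4i1 led again, with Fscn1 at 2501 ± 536 TPM and rank 43, and Cd200 was again the lowest at 101 ± 21.2 TPM.

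**Figure D1:**
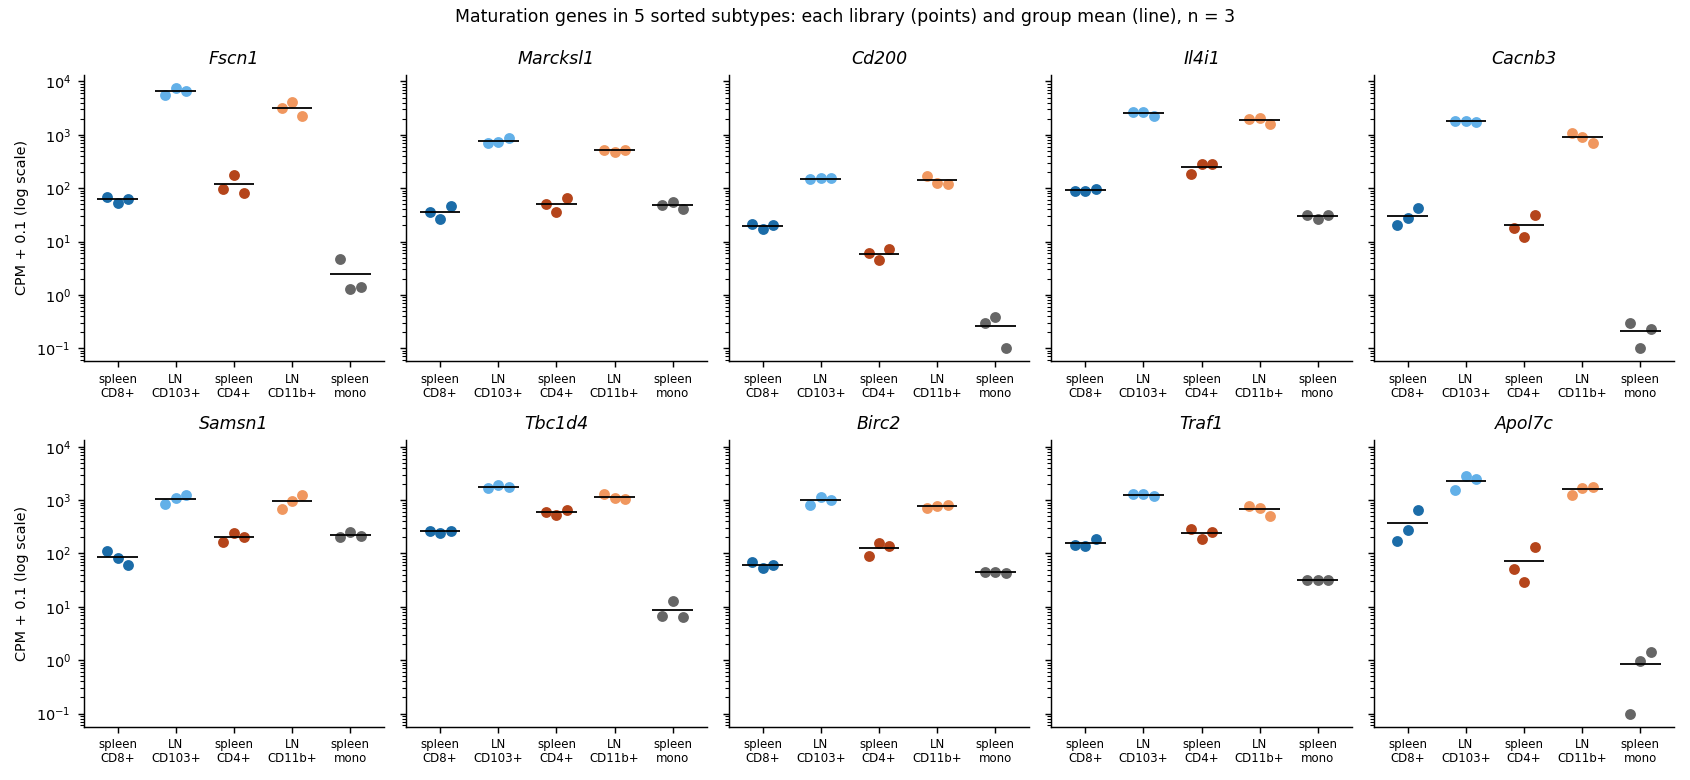
CPM of each of the 10 genes in the 15 libraries, on a log axis with 0.1 added so that values of 0 can be drawn. Points are libraries, lines are means of 3, and colours mark the 5 subtypes. Both LN subtypes lie above all splenic subtypes in each panel, and monocytes are near the bottom of the axis for Cd200, Cacnb3 and Apol7c but beside the splenic DCs for Marcksl1 and Samsn1.

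Promoter sequence was read for all 10 genes from RefSeq (build GRCm38.p6, the build of the counts), 250 bases before to 50 after the start, in 12 windows because Birc2 and Cacnb3 have 2 starts each. Since the 10 genes move together between organs, the windows were searched on both strands for 5 short motifs linked with factors of activated DCs or with the core promoter. The consensus of NF-kB was found in 0 of the 12 windows and in 8.46% of all 32851 promoters, and TGANTCA, the core of the AP-1 site, in 0 of 12 and in 7.81%. GAGGAAGT, a PU.1-type ETS site, was found for Il4i1 and, at 2 places, for Samsn1, against 3.20% of all promoters. An interferon response type of site, a pair of GAAA with 2 bases between them, was found for Apol7c alone, against 3.44%. TATAAA was found for Fscn1 alone, against 13.6%. So no motif of the 5 was shared by more than 2 of the genes. These letters are not the only form of any of the sites, and no match says only that they are absent from the window. For each of the 3 motifs found, the window of 1 gene is given here (for the ETS type of site that of Il4i1, since part of the Samsn1 window lies in an exon), written 5′ to 3′ on the strand of the gene, without bases that the counted annotation places in an exon of the gene, with the match in capitals.
Fscn1, chr5:142960105-142960342, plus strand, TATAAA from 31 to 26 bases before the start: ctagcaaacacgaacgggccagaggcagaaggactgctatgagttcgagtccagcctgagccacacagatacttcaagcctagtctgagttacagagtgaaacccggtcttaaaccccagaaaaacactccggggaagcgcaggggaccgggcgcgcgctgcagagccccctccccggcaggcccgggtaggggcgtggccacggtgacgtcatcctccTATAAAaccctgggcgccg
Il4i1, chr7:44836038-44836286, plus strand, GAGGAAGT read on the other strand: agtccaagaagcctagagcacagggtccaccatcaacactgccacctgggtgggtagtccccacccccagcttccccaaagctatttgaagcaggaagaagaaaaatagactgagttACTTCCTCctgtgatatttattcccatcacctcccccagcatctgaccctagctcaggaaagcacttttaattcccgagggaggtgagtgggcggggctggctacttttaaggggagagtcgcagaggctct
Apol7c, chr15:77533316-77533565, minus strand, 2 overlapping matches to the interferon response type of site read on the other strand: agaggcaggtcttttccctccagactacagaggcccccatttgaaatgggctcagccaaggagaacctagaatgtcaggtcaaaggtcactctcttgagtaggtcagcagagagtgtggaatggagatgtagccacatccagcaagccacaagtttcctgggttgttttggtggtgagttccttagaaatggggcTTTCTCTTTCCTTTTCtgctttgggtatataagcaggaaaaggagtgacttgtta
The window of Il4i1 lies within an intron of the annotated gene, whose span starts farther upstream, and the windows of Fscn1 and Apol7c lie just before the annotated gene.

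The organ comparison asks how the genes differ between migratory LN DCs and resident splenic DCs of the same lineage. All 10 rose in the LN in DC1 (CD103+ against CD8+) and all 10 rose in DC2 (CD11b+ against CD4+), in edgeR's quasi-likelihood test at a Benjamini-Hochberg adjusted p under 0.05. The 10 were picked as markers of migratory DCs, so these counts are a description and no test of that label. Of all genes tested, 23.8% were called higher in the LN in DC1 and 19.3% in DC2, and 21.8% and 13.8% were called lower, which are the shares to set beside the counts of relatives and pathway genes as well. The median log2 difference of the 10 was 3.83 in DC1 and 3.11 in DC2, where the median of all genes tested was 0.0048 and 0.05. Without any 1 library, and under every other normalization, filter or test tried, all 10 stayed past the threshold in both lineages. Across the lineages, too, all 10 were higher in LN CD103+ than in splenic CD4+ DCs (24.8% of all genes) and in LN CD11b+ than in splenic CD8+ DCs (22.5%).

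The genes of the cytoskeleton were Fscn1 and Marcksl1. Fscn1 (chr5:142960343-142973185) encodes fascin, which bundles actin filaments in the dendrites of mature DCs. Its CPM was 69.4, 53.5 and 63.4 in splenic CD8+ DCs and 5685, 7677 and 6601 in LN CD103+ DCs, the widest gap of the 10 in DC1. It was 94.8, 175 and 82.0 in splenic CD4+ DCs and 3192, 4049 and 2282 in LN CD11b+ DCs. The log2 difference was 6.74 ± 0.42 (SE; adjusted p = 5.99e-10) in DC1, a 107-fold ratio of means, and 4.76 ± 0.38 (adjusted p = 3.12e-08) in DC2, a 27.1-fold ratio. Monocytes had 4.52, 1.17 and 1.31 CPM, below every DC library. Marcksl1 (chr4:129513581-129515985), a small relative of the actin- and membrane-binding protein MARCKS, had 35.1, 26.6 and 47.0 CPM in splenic CD8+ DCs and 696, 748 and 877 in LN CD103+ DCs. In DC2 it went from 50.7, 36.3 and 66.0 CPM in the spleen to 522, 484 and 518 in the LN. Its log2 differences were 4.41 ± 0.26 (adjusted p = 4e-10) and 3.32 ± 0.25 (adjusted p = 1.51e-08). Unlike Fscn1, Marcksl1 was no lower in monocytes, at 47.9, 55.2 and 40.1 CPM, and these values overlapped those of both splenic DC subtypes.

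Of the measured relatives and other actin-bundling or membrane-linking genes, 6 of 12 tested were higher and 2 lower in the LN in DC1, and 5 were higher and 4 lower in DC2. Marcks itself rose less than Marcksl1, from 277 ± 90.0 to 901 ± 117 CPM in DC1 (log2 difference 1.70 ± 0.28) and from 277 ± 115 to 773 ± 70.6 in DC2 (1.48 ± 0.28). Pls3 (plastin 3) rose from 4.38 ± 0.687 to 31.1 ± 2.59 CPM in DC1 and from 2.55 ± 0.732 to 21.6 ± 8.12 CPM in DC2. Actn1 (actinin 1) rose by 2.43 ± 0.30 and 2.15 ± 0.30 on the log2 scale. Lcp1, the plastin of leukocytes, fell by 1.27 ± 0.23 in DC1 and by 1.48 ± 0.24 in DC2, from 4717 ± 822 and 8106 ± 2842 CPM in the spleen. Fmnl3, a formin, fell in DC2, from 29.0 ± 5.27 to 13.7 ± 5.06 CPM. The other fascin genes, Fscn2 and Fscn3, had 12 and 5 counts over all 15 libraries and were not tested.

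Cd200 and Il4i1 act on other cells. Cd200 (chr16:45382135-45409053) is a surface ligand that restrains myeloid cells through the receptor Cd200r1. Its CPM was 21.02, 16.7 and 20.7 in splenic CD8+ DCs and 146, 154 and 154 in LN CD103+ DCs. It was 5.92, 4.43 and 6.98 in splenic CD4+ DCs and 171, 126 and 122 in LN CD11b+ DCs. The LN levels of the lineages overlapped although the splenic levels did not, and the log2 difference between organs was 2.96 ± 0.23 (adjusted p = 9.25e-09) in DC1 and 4.59 ± 0.26 (adjusted p = 1.1e-09) in DC2. Cd200r1 went the other way, from 17.5 ± 3.12 to 1.81 ± 1.19 CPM in DC1 (log2 difference -3.29 ± 0.41, adjusted p = 3.21e-06) and from 17.9 ± 4.59 to 6.00 ± 0.673 in DC2 (-1.57 ± 0.37, adjusted p = 0.00298). The other receptor gene that could be tested, Cd200r4, was called in neither lineage.

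Il4i1 (chr7:44816370-44840809) encodes a secreted oxidase of aromatic amino acids that limits T cell proliferation. It had 88.4, 89.9 and 97.3 CPM in splenic CD8+ DCs, with a spread of 4.81 (SD), and 2691, 2665 and 2235 in LN CD103+ DCs. In DC2 it had 187, 289 and 279 CPM in the spleen and 1982, 2098 and 1574 in the LN. The log2 differences were 4.78 ± 0.23 (adjusted p = 1.15e-10) and 2.91 ± 0.21 (adjusted p = 1.06e-08). Up to 2.78% of its exon bases are shared with another gene on the same strand and 2.00% with Atf5 on the opposite strand, and reads on those bases were counted for both. Among 8 other tested genes of tryptophan, arginine and branched-chain amino acid use, 2 were higher and 3 lower in the LN in each lineage, a share called higher near that of all genes tested. Arg2 (arginase 2) rose from 0.742 ± 0.180 to 41.6 ± 5.71 CPM in DC1 and from 0.787 ± 0.337 to 13.9 ± 1.31 in DC2, and Arg1 rose in DC2, to 2.50 ± 1.28 CPM. Ahr, the receptor for many tryptophan products, fell by 1.43 ± 0.22 and 1.99 ± 0.23 on the log2 scale, and Sms (spermine synthase) fell by 1.52 ± 0.31 and 1.00 ± 0.31.

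Cacnb3 and Tbc1d4 take part in calcium entry and vesicle traffic. Cacnb3 (chr15:98632220-98644530), the β3 subunit that brings voltage-gated calcium channels to the membrane, had 20.5, 28.0 and 42.6 CPM in splenic CD8+ DCs and 1842, 1816 and 1745 in LN CD103+ DCs, a group with a standard deviation of 50.04. In DC2 it had 18.2, 12.1 and 31.8 CPM in the spleen and 1070, 895 and 706 in the LN. With log2 differences of 5.89 ± 0.36 (adjusted p = 5.79e-10) and 5.43 ± 0.36 (adjusted p = 3.79e-09) it was the only gene of the 10 above 5 in both lineages. Of 9 other channel subunit genes tested, 5 were higher in the LN in each lineage, with 3 lower in DC1 and 1 lower in DC2. Cacnb1, another β subunit, rose from 3.09 ± 0.896 to 84.5 ± 10.3 CPM in DC1 and from 5.09 ± 2.61 to 60.6 ± 29.2 in DC2, while Cacnb2 fell from 11.6 ± 0.726 to 0.373 ± 0.353 CPM in DC1. Cacna1d reached 27.1 ± 3.20 and 12.6 ± 4.0 CPM in the LN and Cacna1b 10.7 ± 2.52 and 8.04 ± 0.50, both from at most 1.42 ± 0.934 in splenic DCs, and Cacna1e fell in both lineages, with 45.6 ± 8.38 CPM in the spleen and 0.418 ± 0.724 in the LN in DC1 and 6.72 ± 2.33 and 0.109 ± 0.11 in DC2. On the length-scaled values, Cacnb3 stood at 1305 ± 27.5 TPM in LN CD103+ DCs, Cacnb1 at 42.1 TPM and Cacna1d at 6.63 TPM.

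Tbc1d4 (chr14:101442360-101609191), known as AS160, switches off Rab proteins that bring glucose transporters to the surface. It had 267, 242 and 266 CPM in splenic CD8+ DCs and 1674, 1938 and 1763 in LN CD103+ DCs. It had 589, 521 and 647 CPM in splenic CD4+ DCs and 1274, 1088 and 1036 in LN CD11b+ DCs, the narrowest gap of the 10 in DC2. The log2 difference was 2.80 ± 0.23 (adjusted p = 1.51e-08) in DC1 but 0.95 ± 0.22 (adjusted p = 0.00223) in DC2, a 1.93-fold ratio of means. Monocytes had 6.68, 12.8 and 6.31 CPM. Of 12 tested genes of the same pathway, 4 were higher and 2 lower in DC1, and 3 were higher and 2 lower in DC2. Its paralog Tbc1d1 rose by 1.79 ± 0.23 and 1.21 ± 0.23 on the log2 scale, to 383 ± 67.5 and 338 ± 50.8 CPM. Rab13 was called higher in DC2, at 1.49 ± 0.564 CPM in the LN against 0 in all 3 splenic CD4+ libraries. Slc2a3, a glucose transporter gene, fell from 28.3 ± 22.3 to 2.00 ± 1.57 CPM in DC1 and from 125 ± 32.1 to 10.9 ± 6.48 in DC2, and Sort1 (sortilin) fell by 1.65 ± 0.23 in DC2.

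Samsn1, Birc2 and Traf1 are signalling genes. Samsn1 (chr16:75858793-76022270), an adaptor with SH3 and SAM domains that dampens B cell activation, had 111, 81.8 and 59.4 CPM in splenic CD8+ DCs and 827, 1078 and 1260 in LN CD103+ DCs. It had 167, 241 and 208 CPM in splenic CD4+ DCs and 692, 966 and 1235 in LN CD11b+ DCs. Its log2 differences were 3.65 ± 0.28 (adjusted p = 5.94e-09) and 2.23 ± 0.26 (adjusted p = 2.55e-06). Both other genes of its family fell in both lineages: Sash1 by 2.20 ± 0.53 and 2.60 ± 0.46, and Sash3, an adaptor of lymphocytes, by 1.23 ± 0.21 and 1.64 ± 0.21, from 181 ± 30.6 and 343 ± 60.5 CPM in splenic CD8+ and CD4+ DCs.

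Birc2 (chr9:7818236-7835255) encodes cIAP1, a ubiquitin ligase that works with TRAF proteins and keeps the non-canonical NF-kB kinase NIK low. Its CPM was 67.8, 53.6 and 61.3 in splenic CD8+ DCs and 796, 1142 and 1019 in LN CD103+ DCs. In DC2 it was 89.4, 155 and 135 in the spleen and 702, 778 and 823 in the LN. The log2 differences were 4.02 ± 0.23 (adjusted p = 2.82e-10) and 2.60 ± 0.22 (adjusted p = 4.55e-08). Of 8 other tested genes with the same type of domain, 3 were higher and 2 lower in the LN in DC1 and 2 were higher and 2 lower in DC2. Birc3, which encodes cIAP2 and lies 13.4 kb from Birc2, rose by 2.02 ± 0.19 and 1.04 ± 0.19, and Naip2, a sensor of bacterial proteins, by 0.78 ± 0.21 and 1.34 ± 0.21. Xiap, the direct caspase inhibitor, fell by 1.23 ± 0.22 and 1.45 ± 0.22, and Birc5 (survivin), needed for cell division, by 4.74 ± 0.62 and 3.10 ± 0.57. Tmem123, a maturation gene 23.9 kb to the other side of Birc2, rose from 209 ± 60.5 to 7423 ± 904 CPM in DC1 and from 331 ± 135 to 5184 ± 618 in DC2.

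Traf1 (chr2:34941750-34961772), an adaptor of TNF receptors and itself a target gene of NF-kB, had 147, 139 and 185 CPM in splenic CD8+ DCs and 1287, 1316 and 1183 in LN CD103+ DCs. It had 287, 187 and 256 CPM in splenic CD4+ DCs and 783, 718 and 504 in LN CD11b+ DCs. The log2 differences were 3.01 ± 0.22 (adjusted p = 3.52e-09) and 1.46 ± 0.21 (adjusted p = 2.21e-05). Of 12 other TRAF and non-canonical NF-kB genes, 10 were higher in the LN in DC1 and none lower, and 8 were higher and 1 lower in DC2. Traf2, Traf3, Traf5 and Traf6 each rose in both lineages, by 1.12 to 2.31 in DC1 and by 0.80 to 1.54 in DC2. Relb, the NF-kB subunit at the end of this pathway, rose by 4.15 ± 0.25 in DC1, to 2874 ± 162 CPM, and by 1.38 ± 0.22 in DC2, to 2433 ± 322 CPM. Tnfaip3 (A20), a feedback inhibitor, rose by 3.27 ± 0.25 and 2.36 ± 0.24. Chuk (IKKα) fell in DC2, by 1.11 ± 0.21.

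Apol7c (chr15:77524867-77533315), of the apolipoprotein L family, was the most variable of the 10 in the spleen. Its CPM was 171, 278 and 655 in splenic CD8+ DCs and 50.5, 29.0 and 133 in splenic CD4+ DCs, so that replicate 3 was the highest in both. It was 1570, 2870 and 2526 in LN CD103+ DCs and 1256, 1711 and 1773 in LN CD11b+ DCs. The log2 difference between organs was 2.66 ± 0.51 (adjusted p = 0.000307) in DC1 and 4.48 ± 0.56 (adjusted p = 5.3e-06) in DC2. Without replicate 3 of splenic CD8+ DCs the former was 3.37 ± 0.54 (adjusted p = 7.11e-05), and without replicate 3 of splenic CD4+ DCs the latter was 5.31 ± 0.57 (adjusted p = 1.53e-06). Of the 13 other genes of the family listed, 4 could be tested, and 3 were higher in the LN in DC1 and 4 in DC2. Among the latter was Apol7d, which had no count in splenic CD4+ DCs. Its monocyte libraries took it past the filter on low counts, and its call in DC2 is near the limit of detection. Apol10b rose from 14.5 ± 13.5 to 95.4 ± 17.5 CPM in DC1 and from 1.65 ± 1.199 to 39.7 ± 8.63 in DC2. Apol7a and Apol7e rose to no more than 17.2 ± 6.75 and 7.94 ± 5.91 CPM. Apol7d had 93.9 ± 21.8 CPM in monocytes and at most 0.605 ± 0.587 in the DC subtypes, the opposite of Apol7c. Apol7a, Apol7c, Apol7e and Apol10b lie near each other on chromosome 15 (Apol7d is on chromosome 1), the genes of the family resemble each other, reads that mapped to several places (15.8% to 22.8% of alignments per library) were not counted, and the levels within the family are therefore uncertain.

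**Figure D2:**
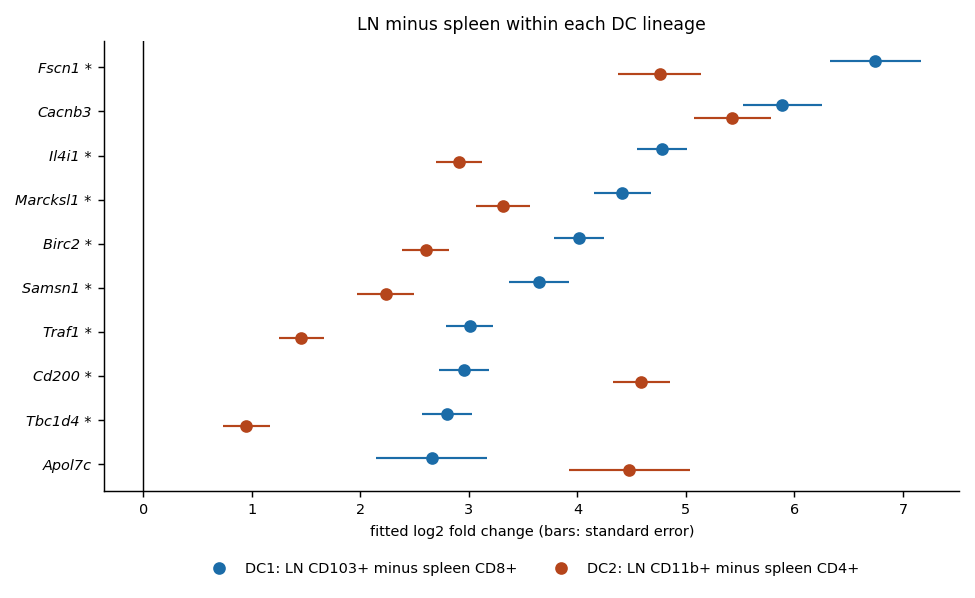
Fitted log2 fold change of the 10 genes between LN and spleen in DC1 (blue) and DC2 (orange-red), with standard errors. An asterisk marks the 8 genes whose difference between organs itself differed between the lineages. All points lie to the right of 0, from 0.95 for Tbc1d4 in DC2 to 6.74 for Fscn1 in DC1.

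**Figure D3:**
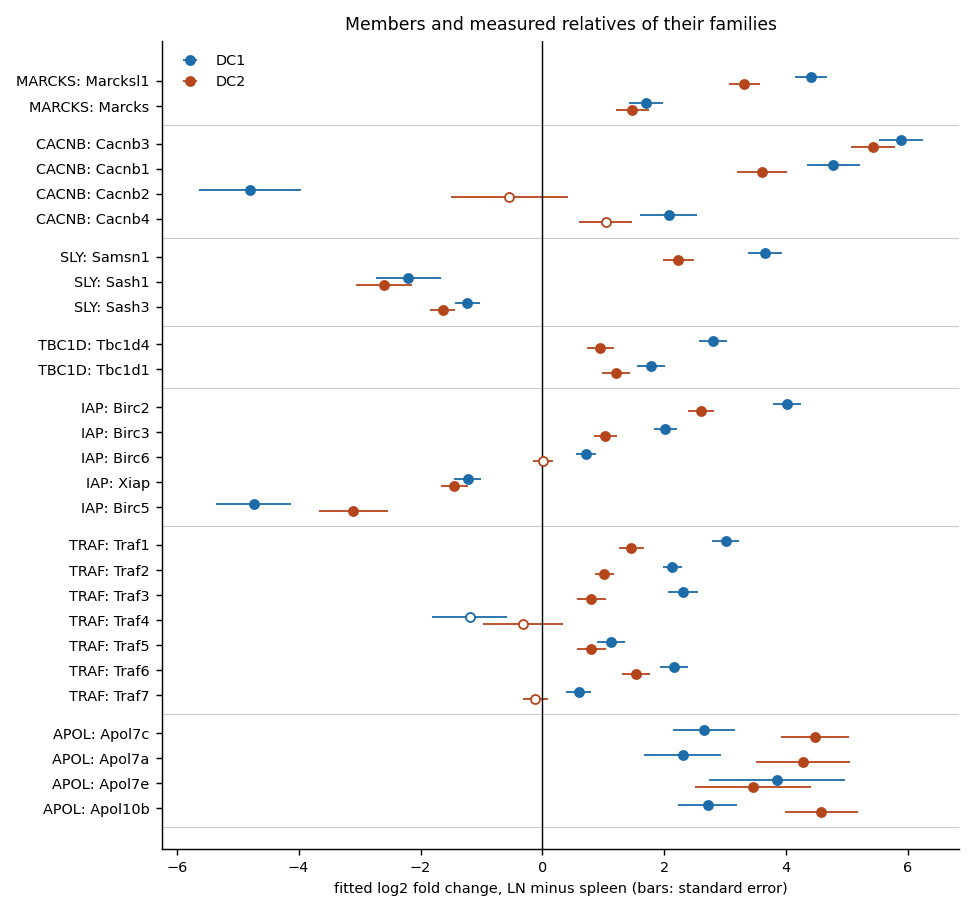
The same log2 fold changes for 7 of the 10 genes and tested relatives, grouped by family, with standard errors. Filled points passed the threshold. Sash1, Sash3, Xiap and Birc5 lie to the left of 0 in both lineages while Samsn1 and Birc2 of the same families lie to the right. The NAIP genes and Apol7d are not drawn.

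The rise between organs was not equal in the lineages. Tested as an interaction (the DC1 difference minus the DC2 difference), 7 of the 10 genes rose more in DC1 and 1 rose more in DC2. Of all genes tested, 5.17% had an interaction called above 0 and 6.03% one called below 0. The 7 were Fscn1 (1.98 ± 0.47, adjusted p = 0.00899), Il4i1 (1.88 ± 0.28, adjusted p = 0.000222), Tbc1d4 (1.84 ± 0.31, adjusted p = 0.000576), Traf1 (1.55 ± 0.29, adjusted p = 0.00157), Samsn1 (1.42 ± 0.35, adjusted p = 0.0133), Birc2 (1.41 ± 0.29, adjusted p = 0.0036) and Marcksl1 (1.10 ± 0.33, adjusted p = 0.035). The call of Marcksl1 was lost without replicate 1 or 2 of splenic CD8+ DCs, replicate 1 or 3 of splenic CD4+ DCs, replicate 2 or 3 of LN CD103+ DCs, or replicate 1 or 2 of LN CD11b+ DCs (adjusted p up to 0.0919). It was also lost in a fit of only the groups compared (adjusted p = 0.0588) and with limma on log2 of TPM plus 1 or 0.1 (adjusted p = 0.109 and 0.123). With limma at a pseudocount of 0.1 the call of Fscn1 was lost too (1.90 ± 0.56, adjusted p = 0.056). Cd200 was the 1 gene that rose more in DC2 (-1.63 ± 0.33, adjusted p = 0.0029), a call lost with limma at a pseudocount of 0.1 (-1.65 ± 0.53, adjusted p = 0.0764). Apol7c had a value of the same sign (-1.82 ± 0.69, adjusted p = 0.0987), and with the replicate number as a block it passed the threshold (-1.80 ± 0.47, adjusted p = 0.0149). It also passed without splenic CD4+ replicate 3 (-2.65 ± 0.62, adjusted p = 0.00869), without splenic CD8+ replicate 1 (-2.17 ± 0.67, adjusted p = 0.0464) and with no filter on low counts (-1.82 ± 0.33, adjusted p = 1.59e-06), while without splenic CD8+ replicate 3 it was -1.11 ± 0.63 (adjusted p = 0.321). For Cacnb3 the value was 0.46 ± 0.43 (adjusted p = 0.55).

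These differences can be read from the lineages within each organ, since the interaction is the lineage difference in the LN minus that in the spleen. In the spleen, 6 of the 10 genes were lower in CD8+ than in CD4+ DCs and 2 were higher, where 14.4% and 13.1% of all genes were. The 6 were Il4i1 (log2 difference -1.45 ± 0.20), Samsn1 (-1.29 ± 0.25), Tbc1d4 (-1.18 ± 0.22), Birc2 (-1.05 ± 0.21), Fscn1 (-0.92 ± 0.33, adjusted p = 0.0472) and Traf1 (-0.63 ± 0.20, adjusted p = 0.0263). The calls of Fscn1 and Traf1 depend on the fit and on single libraries. With limma on log2 of TPM plus 1 or 0.1 the call of Fscn1 was lost (adjusted p = 0.0615 and 0.132). The call of Traf1 was lost in a fit of only the groups compared (adjusted p = 0.0945). Without replicate 2 of splenic CD4+ DCs Fscn1 differed by -0.51 ± 0.32 (adjusted p = 0.288), and its call was also lost without any 1 library of splenic CD8+ or LN CD103+ DCs, LN CD11b+ replicate 1 or monocyte replicate 3 (adjusted p = 0.0508 to 0.114). That of Traf1 was lost without replicate 1 or 2 of splenic CD8+ DCs or replicate 1 or 3 of splenic CD4+ DCs, with the largest adjusted p, 0.0944, at a difference of -0.50 ± 0.22 without CD4+ replicate 1. The 2 genes above their CD4+ level were Cd200 (1.75 ± 0.25, adjusted p = 3.76e-05) and Apol7c (2.38 ± 0.51, adjusted p = 0.00185). For Apol7c the difference was 1.67 ± 0.47 without replicate 3 of the CD8+ and 3.21 ± 0.51 without replicate 3 of the CD4+ DCs. Its call was lost with limma at a pseudocount of 0.1 (2.39 ± 0.88, adjusted p = 0.0691). Marcksl1 (-0.49 ± 0.23, adjusted p = 0.127) and Cacnb3 (0.56 ± 0.31, adjusted p = 0.196) overlapped between the splenic subtypes, and each passed the threshold when a splenic replicate was left out: Cacnb3 without CD4+ replicate 3 (1.00 ± 0.30, adjusted p = 0.0211), and Marcksl1 without CD8+ replicate 3 (-0.72 ± 0.25, adjusted p = 0.0482) or CD4+ replicate 2 (-0.69 ± 0.23, adjusted p = 0.0413).

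In the LN, 3 of the 10 genes were higher in CD103+ than in CD11b+ DCs, where 5.22% of all genes were, and none was lower, where 7.73% were. They were Fscn1 (1.07 ± 0.33, adjusted p = 0.0379), Cacnb3 (1.02 ± 0.29, adjusted p = 0.0275) and Traf1 (0.92 ± 0.20, adjusted p = 0.00461). The levels of all 3 did not overlap between the LN subtypes, as for 6 of the 10 genes and 16% of all genes in this direction. Tbc1d4 was at the threshold (0.66 ± 0.22, adjusted p = 0.0502) and passed it with the replicate number as a block (0.66 ± 0.20, adjusted p = 0.0322). Birc2, Cd200, Samsn1 and Apol7c overlapped between the LN subtypes, with log2 differences of 0.36 ± 0.20, 0.12 ± 0.21, 0.13 ± 0.25 and 0.56 ± 0.48, and Il4i1 (0.42 ± 0.20, adjusted p = 0.18) and Marcksl1 (0.61 ± 0.23, adjusted p = 0.0895) did not overlap but were not called. The calls of Fscn1 and Cacnb3 depend on single libraries. Without LN CD11b+ replicate 3, the library with the lowest Fscn1 and Cacnb3 of its group, their differences were 0.88 ± 0.36 (adjusted p = 0.141) and 0.88 ± 0.33 (adjusted p = 0.107). Without replicate 2 of LN CD103+ DCs they were 0.95 ± 0.37 (adjusted p = 0.13) and 1.01 ± 0.33 (adjusted p = 0.0736), and without replicate 3 they were 1.08 ± 0.37 (adjusted p = 0.0829) and 1.04 ± 0.33 (adjusted p = 0.0598), so that 1 call, that of Traf1, was left in each of these cases. The call of Fscn1 was also lost without LN CD11b+ replicate 1 (adjusted p = 0.095) or splenic CD8+ replicate 2 (adjusted p = 0.0512), and that of Cacnb3 without LN CD103+ replicate 1 (adjusted p = 0.0606) or LN CD11b+ replicate 2 (adjusted p = 0.0749).

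**Figure D4:**
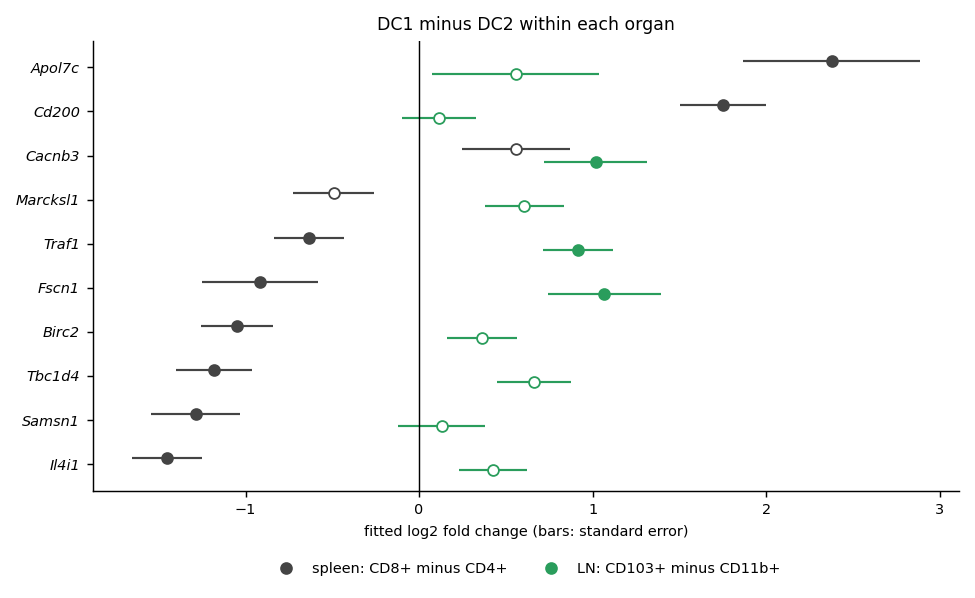
Fitted log2 fold change of the 10 genes between DC1 and DC2 in the spleen (grey) and in the LN (green), with standard errors. Filled points passed the threshold. The splenic values run from -1.45 for Il4i1 to 2.38 for Apol7c, and the LN values from 0.12 for Cd200 to 1.07 for Fscn1.

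The order of the 5 subtypes by mean CPM therefore began with LN CD103+ and then LN CD11b+ DCs for every one of the 10 genes, and the 2 LN neighbours differed past the threshold for Fscn1, Cacnb3 and Traf1. Splenic CD4+ DCs were next for Fscn1, Marcksl1, Il4i1, Tbc1d4, Birc2 and Traf1, splenic CD8+ DCs for Cd200, Cacnb3 and Apol7c, and monocytes for Samsn1. The step from the LN to the next subtype passed the threshold for all 10. It was the widest for Cacnb3, at 4.87 ± 0.35 on the log2 scale between LN CD11b+ and splenic CD8+ DCs, and the narrowest for Tbc1d4.

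Monocytes were the comparison outside the DC lineages. Against splenic CD8+ DCs 7 of the 10 genes were lower and 1 higher in monocytes, where 21.7% and 20.4% of all genes were, and against splenic CD4+ DCs 8 were lower and none higher, where 24.2% of all genes were lower. Against LN CD103+ and LN CD11b+ DCs all 10 were lower, where 28.6% and 26.5% of all genes were. Samsn1 and Marcksl1 were the exceptions to the low level. Samsn1, at 204, 249 and 216 CPM, was higher than in splenic CD8+ DCs (1.41 ± 0.26, adjusted p = 0.000188) and overlapped with splenic CD4+ DCs (0.12 ± 0.25, adjusted p = 0.721). Marcksl1 differed by 0.40 ± 0.23 (adjusted p = 0.184) and -0.09 ± 0.23 (adjusted p = 0.772) from splenic CD8+ and CD4+ DCs. Birc2, at 45.4, 45.6 and 42.3 CPM, was below every splenic CD8+ library but not called (-0.46 ± 0.21, adjusted p = 0.0887). Il4i1, at 31.4, 25.8 and 31.3 CPM, was 3.11-fold lower than in splenic CD8+ and 8.52-fold lower than in splenic CD4+ DCs, and Traf1, at 31.2, 31.4 and 32.3 CPM, 4.95-fold and 7.69-fold lower.

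Cacnb3, Cd200 and Apol7c were near the limit of detection in monocytes. Cacnb3 had 2 counts over the 3 monocyte libraries. Its mean in splenic CD4+ DCs was 238 times the pooled monocyte level, with a 95% Poisson interval on the monocyte counts of 65.8 to 1963, and in LN CD103+ DCs 20712 times (5734 to 171026). Cd200 had 4 counts, and its mean in splenic CD4+ DCs was 33.2 times the monocyte level (12.98 to 122). Apol7c had 19 counts, none in replicate 1, and its mean in splenic CD4+ DCs was 85.8 times the monocyte level (54.9 to 142). These intervals cover counting error only, and single libraries moved the ratios. Without splenic CD4+ replicate 3 that of Apol7c was 48.1 (30.8 to 79.8). Without monocyte replicate 3 the ratio of Cd200 was 22.2 (8.68 to 81.6), and without monocyte replicate 2 it was 73.4 (13.2 to 2898) on 1 count. For Cacnb3 the ratio to splenic CD4+ DCs was 131 (36.3 to 1084) without monocyte replicate 2 and 370.2 (66.4 to 14621) on 1 count without replicate 1.

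The profile of the 10 genes can be set beside the rest of the transcriptome as a description. Each gene's log2 CPM over the 15 libraries was standardized and the 10 were averaged. Over 15 libraries that fall into 5 subtypes, and so share their groups and depths, Pearson's r with the mean of the other 9 was 0.99 for Fscn1 and Il4i1, 0.98 for Cacnb3, 0.97 for Traf1, 0.96 for Birc2 and 0.94 for Cd200. It was 0.89 for Apol7c, 0.88 for Tbc1d4 and Marcksl1 and 0.73 for Samsn1, which was also the partner in the lowest pair (0.48, with Apol7c). The highest pair was Fscn1 with Cacnb3 (0.98). Of 10236 other genes at a mean of 10 CPM or more in some subtype, the 5 most like the average of the 10 were Hcn3 (r = 0.994), an ion channel gene, Ccr7 (0.993), Eno2 (0.993), a glycolytic enolase, Tnfrsf4 (0.993), which encodes OX40, and Zfp872 (0.992). Ccr7 was at 4024 ± 424 and 2317 ± 164 CPM in LN CD103+ and CD11b+ DCs and at 90.9 ± 31.3, 166 ± 65.3 and 6.34 ± 1.64 CPM in CD8+ DCs, CD4+ DCs and monocytes of the spleen. Tnfrsf4 was at 1268 ± 203, 705 ± 157, 17.02 ± 6.97, 25.5 ± 10.5 and 0.836 ± 0.516 CPM in the same order. Hcn3, Eno2 and Zfp872 had no count in any monocyte library and 50.8 ± 3.67, 142 ± 17.01 and 98.5 ± 27.8 CPM in LN CD103+ DCs.

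A list of 38 other maturation genes known from the same programme was measured beside the 10. Like the 10, it was chosen with earlier results of these data known, so its counts are a description and no separate support. In DC1, 36 of them were higher and 1 was lower in the LN, with a median log2 difference of 4.47, where 23.8% and 21.8% of all genes were. In DC2 32 were higher and none lower, with a median of 3.49, where 19.3% and 13.8% of all genes were. Ccl22, a chemokine for regulatory T cells, rose from 10.1 ± 10.03 to 1298 ± 194 CPM in DC1 and from 1.49 ± 0.923 to 655 ± 125 in DC2. Arc, which takes part in endocytosis, rose from 9.42 ± 6.64 to 916 ± 195 CPM in DC1 and from 1.40 ± 1.15 to 314 ± 80.0 in DC2. Cd86, a costimulatory ligand, was the 1 gene lower in the LN in DC1 (log2 difference -0.74 ± 0.24, adjusted p = 0.0168), at 153 ± 17.9 CPM against 256 ± 67.1 in the spleen. The interaction was called above 0 for 15 of the 38 and below 0 for 3, beside 5.17% and 6.03% of all genes. Of these 3, Net1 and Serpinb6b, named here after their values were seen, were called higher in the LN in both lineages, and Cd86 was lower in DC1 and not called in DC2 (0.56 ± 0.24, adjusted p = 0.0867). In the spleen, 17 were lower and 6 higher in CD8+ than in CD4+ DCs, where 14.4% and 13.1% of all genes were. In the LN 11 were higher and 1 lower in CD103+ than in CD11b+ DCs, where 5.22% and 7.73% of all genes were.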

How the data were processed

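Libraries were made from sorted cells with an oligo(dT)-primed template-switching kit and sequenced on an Ion Torrent instrument, per the labels and the methods of the study. The authors aligned reads with STAR (2.4.0j) to mm10 and deposited whole-number counts per gene, made with featureCounts (Subread 1.5.2) on Ensembl genes without regard to strand. They also deposited TPM values, which were recomputed from the counts within 9.6e-10. Monocyte libraries were sequenced in 2 runs and DC libraries in 1.

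Genes with over 1 CPM in at least 3 libraries (14456 of 38924) entered one fit of 15 libraries with edgeR (4.0.16, R 4.3.3), TMM factors of 0.883 to 1.10, the quasi-likelihood test with 10 residual degrees of freedom, and Benjamini-Hochberg adjustment over all genes at a threshold of 0.05. Subtypes came from the labels. Log2 CPM for correlations used a prior count of 2. The scripts were tested on simulated data. The alternatives were RLE size factors, DESeq2 (1.42.0), no filter (23169 genes), filterByExpr (13888 genes), limma (3.58.1) on log2 of TPM plus a pseudocount of 1 or 0.1 (16093 genes), a fit of only the groups compared, the replicate number as a block, and leaving out each library. An exact permutation test of 3 against 3 libraries cannot go below p = 0.1 and was not used.

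The members and lists were chosen with earlier results of these data known. The text names the 10 genes, the 5 genes most like them, the genes of each list with the highest and lowest called changes, and relatives or partners of a member. Cacnb1, Fscn2, Fscn3 and Tmem123 fall outside this rule and were named after their values were seen.

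Labels number the replicates. Same-numbered libraries deviated together (r over 0.1 in all 3 pairs) between the splenic DC subtypes (0.162 to 0.375), between the LN DC subtypes (0.179 to 0.259) and between splenic CD4+ DCs and both LN subtypes (0.117 to 0.266), but not between splenic CD8+ DCs and LN CD103+ DCs (0.0374 to 0.0860), between splenic CD8+ and LN CD11b+ DCs (0.0163 to 0.182), or with monocytes.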

Additional observations from a re-analysis of the deposited data

Results flagged for a closer look

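The difference between LN and spleen differed between DC1 and DC2 for 8 of the 10 genes, by the interaction term of edgeR's fit (DC1 minus DC2, log2). It was larger in DC1 for Fscn1 (1.98), Il4i1 (1.88), Tbc1d4 (1.84), Traf1 (1.55), Samsn1 (1.42), Birc2 (1.41) and Marcksl1 (1.10), and larger in DC2 for Cd200 (-1.63). The calls of Fscn1 and Cd200 were lost with limma at a pseudocount of 0.1, and that of Marcksl1 under several alternatives. Organ is also cohort and gate in both lineages, and these cannot be told apart.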

How the results depend on the processing

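Over the 10 genes, 11 comparisons and 23 alternatives, 2458 of 2530 values kept their direction and side of the threshold, 45 lost a call, 22 gained one and 5 changed sign, and in LN against spleen within each lineage all 10 genes stayed called. The sign changes were all in differences that were not called and came from leaving out 1 library: Samsn1 ranged from -0.0622 (without LN CD11b+ replicate 1) to 0.348 between LN subtypes, also turning without LN CD103+ replicate 3 (-0.0167), and from -0.00832 (without CD4+ replicate 1) to 0.251 between monocytes and splenic CD4+ DCs, where Marcksl1 ranged from -0.289 to 0.13 (without CD4+ replicate 3) and also turned without monocyte replicate 3 (0.02). Between LN subtypes the 3 called genes became 5 with DESeq2 or a fit of only the groups compared and 1 with limma at either pseudocount, and the interaction calls went from 8 to 5 with limma at a pseudocount of 0.1. Genes called between the splenic DC subtypes went from 3966 to 2600 in the fit of only the groups compared, which uses fewer samples. The cause of this and of the other changes was not tested. Leaving out 1 library gave 7 to 8 of the 10 genes for the interaction, 6 to 8 between splenic subtypes, 1 to 5 between LN subtypes, 8 to 9 for monocytes against splenic CD8+ DCs, and 1216 to 2171 (main 1872) of all genes between LN subtypes. With the replicate block, Tbc1d4 was called between LN subtypes (0.66 ± 0.20, adjusted p = 0.0322) and Apol7c in the interaction (-1.80 ± 0.47, adjusted p = 0.0149), and it changed no call of the 10 genes elsewhere. Few counts limit Cacnb3, Cd200 and Apol7c in monocytes.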
